A study of Homo sapiens with 10 samples.

Results

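The genes described here were 10 target genes of the transcription factor SRF and of the coactivator YAP that are typical of contractile cells: TAGLN, CNN1, MYL9, TPM1, TPM2, ACTA2, VCL, SRF, ANKRD1 and AMOTL2. They were taken by gene symbol, and all 10 were found among the 34567 genes of the table. RNA-seq of poly(A) RNA was made from 2 human glioma cell lines, SNB19 and U87, both grown in medium with 10% serum. SNB19 cells were lipofected with a Scramble siRNA (3 libraries, scramble) or with siRNA against MEOX2 (3 libraries, siMEOX2). U87 cells were transduced with an empty lentiviral vector (2 libraries, empty vector) or with a lentivirus that expresses MEOX2 (2 libraries, MEOX2 overexpression), and the methods describe the U87 lines as selected with puromycin. MEOX2 is a homeobox transcription factor, and the study asked which transcripts change when its level is lowered or raised. The labels did not say which siRNA against MEOX2 was used, nor whether the replicates were separate cultures, so p-values measure the spread between these libraries, which may be technical.

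SRF acts through 2 kinds of partner. The MRTF coactivators are held in the cytoplasm by monomeric actin and enter the nucleus when actin polymerises, where they turn on genes of the actin cytoskeleton with SRF, while the ternary complex factors carry growth factor signals to SRF at immediate early genes. YAP and its relative WWTR1 (TAZ) are restrained by the Hippo kinases LATS1 and LATS2, respond to cell shape and tension, and act through TEAD factors. SRF binds the CArG box and TEAD factors bind the motif GGAATG, and many genes of contractile and migrating cells answer to both.

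Promoter windows from RefSeq (GRCh38.p14), which run from 250 bases before to 50 bases after each start site, were matched to 8 of the 10 genes, with 12 windows in all; TAGLN and MYL9 had none. Both strands were searched for GGAATG, which reads CATTCC on the other strand, and for the CArG box in its strict form, which has only A or T between its outer CC and GG; boxes with another letter inside were not counted. Of the 12 windows only 1 of the 2 windows of the SRF gene had a strict CArG box. It held 2 of them, 30 and 10 bases before the start site. Among all 35116 windows 1.29% held at least 1. The motif GGAATG lay in 1 window each of ACTA2, ANKRD1, AMOTL2 and VCL, with 2 matches in ANKRD1, against 14.0% of all windows. The letters TAATTA, a core that homeodomain proteins such as MEOX2 can bind, were in 0 of the 12 windows and in 4.84% of all windows. A match or its absence describes these letters only, and no binding was measured. The stretches below are shown because they carry the matches near the genes whose values are given next; each is read along the gene's strand with the matched letters in capitals. The SRF stretch is at chr6:43171219-43171268 with the CArG box farther from the start site in capitals, the ANKRD1 window at chr10:90921038-90921337 on the minus strand, the AMOTL2 stretch at chr3:134374491-134374536 on the minus strand, the VCL stretch at chr10:73997925-73997970 and the ACTA2 stretch at chr10:88952931-88952976 on the minus strand.
SRF: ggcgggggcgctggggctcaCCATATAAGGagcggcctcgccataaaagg
ANKRD1: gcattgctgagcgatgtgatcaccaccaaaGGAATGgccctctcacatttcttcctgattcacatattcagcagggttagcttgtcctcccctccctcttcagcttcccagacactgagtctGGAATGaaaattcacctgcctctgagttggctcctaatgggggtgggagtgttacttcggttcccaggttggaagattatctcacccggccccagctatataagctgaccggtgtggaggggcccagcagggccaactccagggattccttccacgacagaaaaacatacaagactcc
AMOTL2: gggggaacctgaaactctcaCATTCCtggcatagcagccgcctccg
VCL: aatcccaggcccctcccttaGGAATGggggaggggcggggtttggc
ACTA2: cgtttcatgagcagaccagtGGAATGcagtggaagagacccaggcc

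Depth was similar in all libraries, from 12533775 to 16560324 counts assigned to genes, and mitochondrial genes took 2.27% to 3.57% of them. One library stood apart. U87 empty vector replicate 1 correlated with replicate 2 at r = 0.857 across 10747 genes on the log2 scale, whereas the other replicate pairs lay between 0.993 and 0.997. Between these 2 libraries 38.8% of 11332 genes differed by more than 2-fold, against at most 0.176% for any other pair. The ratio followed gene length: the median log2 ratio of replicate 1 over replicate 2 was 0.36 in the shortest quartile of genes and -0.36, -0.71 and -1.11 in the next 3. Among the contractile genes it ran from 1.52 for TPM2 and 1.48 for MYL9 to -2.05 for AMOTL2 and -2.76 for VCL. These genes did not keep a strict order by length. ACTA2, shorter than TPM2, was at -0.95, and TPM1, the longest, at -0.86. Fold changes of the contractile genes against the U87 controls are therefore given with both controls and with each control alone.

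**Figure D1:**
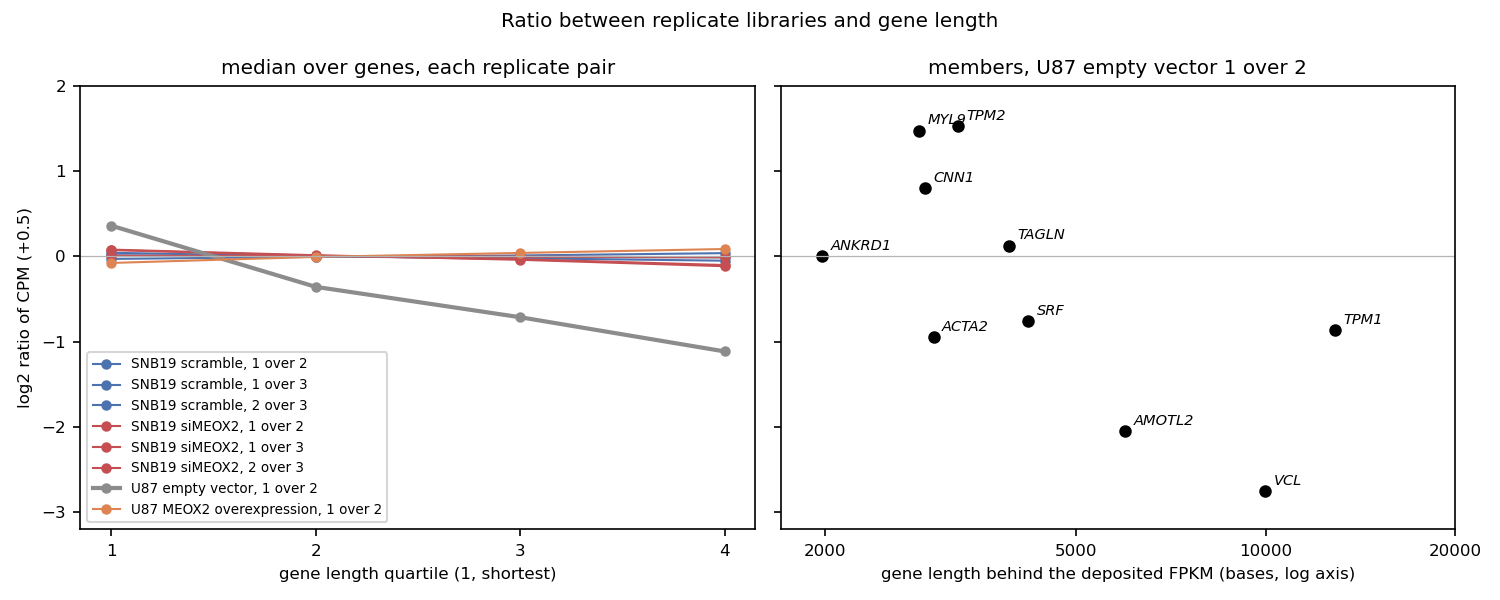
Left, median log2 ratio of CPM (counts scaled to the library total, after adding 0.5) between replicate libraries of each group, by quartile of gene length; right, the same ratio of U87 empty vector replicate 1 over replicate 2 for each of the 10 genes against its length in bases (log axis). The empty vector pair fell from 0.36 to -1.11 across the quartiles while the other pairs stayed near 0, and VCL had the lowest ratio of the 10 genes, -2.76.

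MEOX2 itself (chr7:15611212-15686812) followed the labels. In SNB19 it had 249, 224 and 275 counts in the scramble libraries and 54, 40 and 49 in the siMEOX2 libraries, a log2 fold change of -2.41 (SE 0.14, edgeR's adjusted p = 1.35e-11). In U87 it had 0 counts in both empty vector libraries and 4999 and 5308 under overexpression. Measured against a floor of 3 counts over the empty vector group, MEOX2 was at least 3821-fold higher in the overexpressing cells. U87 cells thus offered no detectable MEOX2 of their own at this depth, and the SNB19 scramble libraries held 16.4 ± 1.34 CPM (SD, n = 3).

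Levels between genes were compared as FPKM, which divides by gene length and library size. In SNB19 scramble cells VCL was highest at 81.3 ± 1.98 FPKM, followed by CNN1 at 31.9 ± 2.17, AMOTL2 at 21.6 ± 0.832, SRF at 19.8 ± 0.680 and TPM1 at 18.2 ± 0.0856 (SD, n = 3). TPM2 stood at 7.63 ± 0.935 FPKM and TAGLN at 1.69 ± 0.344, while ACTA2, MYL9 and ANKRD1 were below 1, and only the last of these neighbours, MYL9 at 0.433 ± 0.0403 and ANKRD1 at 0.370 ± 0.133, overlapped in their values. After siMEOX2 AMOTL2 stood above CNN1, TPM2 above TPM1, ACTA2 above TAGLN with overlap, and ANKRD1, last in the scramble cells, stood seventh. In U87 MEOX2 overexpression libraries the order was VCL (24.2 FPKM), SRF (20.5), TPM2 (7.54), AMOTL2 (6.92), MYL9 (6.09), TPM1 (2.33), ACTA2 (1.68), CNN1 (1.13), TAGLN (0.848) and ANKRD1 (0.173), with no overlap between neighbours in 2 libraries. In the U87 empty vector libraries most neighbours overlapped, VCL alone being 7.28 FPKM in replicate 1 and 49.5 in replicate 2. Desmin and MYH11, which mark muscle and smooth muscle, were low in every library, at most 8.38 CPM for DES and 2.64 CPM for MYH11. The wider list of pericyte and smooth muscle markers held abundant genes too. Its summed level was 318 to 464 CPM in SNB19, most of it from 1 gene, MCAM (261 to 392 CPM). In U87 the sum was 165 to 410 CPM. There CSPG4 led in the empty vector libraries (80.0 and 188 CPM) and ABCC9 in the overexpression libraries (197 and 182 CPM).

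**Figure D2:**
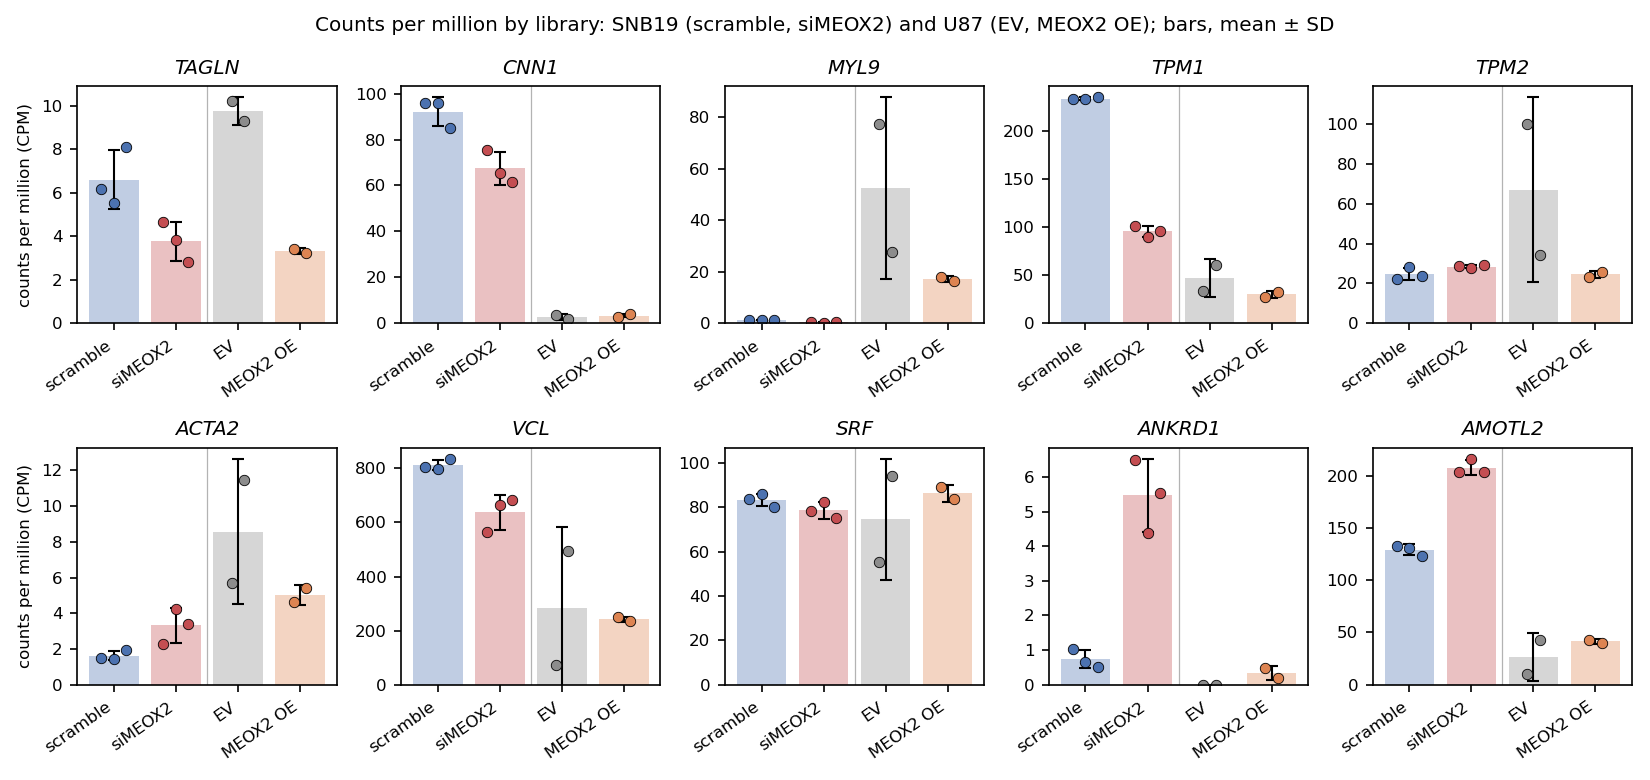
CPM of each gene (vertical axis, from 0) in SNB19 scramble and siMEOX2 and in U87 empty vector (EV) and MEOX2 overexpression (OE); points are libraries, bars the mean and error bars the SD, clipped at 0 for VCL. TPM1 separated the SNB19 groups widely, at 233 to 235 CPM against 89.8 to 101, and the EV points lay far apart for VCL, AMOTL2, MYL9 and TPM2.

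After knockdown of MEOX2 in SNB19 cells the contractile structural genes TPM1, TAGLN, CNN1 and VCL were lower and the YAP target AMOTL2 was higher. Of the 10 genes, 3 were higher (ANKRD1, ACTA2 and AMOTL2) and 6 lower (MYL9, TPM1, TAGLN, CNN1, VCL and SRF), and TPM2 was not called at an adjusted p under 0.05. MYL9 and ANKRD1 passed the filter on low counts only through the group in which they were high, and without them 2 of the other 8 were higher and 5 lower. The background was high: of 15525 genes tested, 27.4% were called higher and 28.5% lower, so calls in both directions were common among all genes. In 1 fit of all 4 groups, whose spread includes the U87 controls, fewer of all genes were called. Their number stands under How the results depend on the processing. TPM1, TAGLN and ANKRD1 were still called in that fit. The calls of the other 6 were lost, with edgeR's adjusted p = 0.0556 for ACTA2, 0.193 for CNN1, 0.111 for MYL9, 0.241 for AMOTL2, 0.553 for VCL and 0.360 for SRF. The median log2 fold change of the 10 genes was -0.29, beside 0.01 for all genes tested. Their summed level fell from 182 to 185 FPKM in the scramble libraries to 157 to 165 in the siMEOX2 libraries. The median log2 ratio of siMEOX2 over scramble lay between 0.04 and 0.07 in all 4 quartiles of gene length.

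TAGLN (chr11:117199321-117204782) encodes transgelin, an actin-binding protein abundant in smooth muscle. It measured 6.16, 5.54 and 8.12 CPM in the scramble libraries and 4.65, 3.83 and 2.84 in the siMEOX2 libraries. The groups did not overlap, and TAGLN fell by 0.88 on the log2 scale (log2 fold change -0.88, SE 0.20, edgeR's adjusted p = 7.84e-04). Its exons share 446 bases with PCSK7 on the other strand, and the library kit does not mark strand.

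CNN1 (chr19:11538717-11550323), calponin 1, binds actin and tropomyosin and damps myosin activity. It measured 95.8, 95.8 and 84.9 CPM in the scramble libraries and 75.6, 65.4 and 61.3 after siMEOX2. Every siMEOX2 library lay below every scramble library, with a log2 fold change of -0.52 (SE 0.08, edgeR's adjusted p = 6.36e-06).

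MYL9 (chr20:36541484-36551447) encodes the regulatory light chain of myosin whose phosphorylation starts contraction. It was barely detected in SNB19, with 19, 16 and 21 counts in the scramble libraries and 7, 2 and 6 after siMEOX2. The groups did not overlap, and the log2 fold change was -1.90 (SE 0.44, edgeR's adjusted p = 9.52e-04), but the gene passed the filter on low counts only through the scramble group, and reads shared with related light chain genes cannot be told apart.

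TPM1 (chr15:63042632-63071915) and TPM2 (chr9:35681992-35690121) encode tropomyosins, which run along the actin filament and gate its access to myosin. TPM1 measured 233, 233 and 235 CPM in the scramble libraries and 101, 89.8 and 95.6 after siMEOX2. It had the smallest p of the 10 genes, with a log2 fold change of -1.37 (SE 0.06, edgeR's adjusted p = 4.98e-14), that is 2.58-fold lower. TPM2 measured 22.4, 28.2 and 23.8 CPM against 28.5, 27.8 and 29.1, so the groups overlapped, and its log2 fold change was 0.13 (SE 0.09, edgeR's adjusted p = 0.242). A test of the difference between the 2 tropomyosins was not made. Antisense transcripts overlap 2070 and 691 exonic bases of TPM1, and reads that fit several tropomyosin genes may have been split or dropped.

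ACTA2 (chr10:88935074-88991339) encodes smooth muscle alpha actin. It was low in SNB19, at 1.51, 1.46 and 1.93 CPM in the scramble libraries and 2.29, 4.25 and 3.41 after siMEOX2, with no overlap. ACTA2 thus rose while the structural genes above fell or were not called, with a log2 fold change of 0.93 (SE 0.27, edgeR's adjusted p = 0.00568). This call rested on siMEOX2 replicate 2, without which the log2 fold change was 0.72 and edgeR's adjusted p = 0.0502. The ACTA2 exons share 516 bases with ACTA2-AS1 and 380 with FAS, both on the other strand, and actin paralogs share sequence.

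VCL (chr10:73995193-74121363) encodes vinculin, which ties actin filaments to integrin and cadherin adhesions. It measured 806, 796 and 835 CPM in the scramble libraries and 564, 665 and 682 after siMEOX2. The groups did not overlap, with siMEOX2 replicate 1 lowest, and the log2 fold change was -0.43 (SE 0.06, edgeR's adjusted p = 1.56e-06). Its exons share 1109 bases with AP3M1 on the other strand.

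SRF (chr6:43171299-43181507) itself changed little. It measured 83.8, 86.0 and 80.3 CPM in the scramble libraries and 78.3, 82.5 and 75.2 after siMEOX2, and the groups overlapped. The log2 fold change was -0.16 (SE 0.06, edgeR's adjusted p = 0.0311). This call was lost with DESeq2 (adjusted p = 0.0533), with upper quartile factors (adjusted p = 0.188), and without scramble replicate 1 (adjusted p = 0.0866), scramble replicate 2 (adjusted p = 0.112) or siMEOX2 replicate 3 (adjusted p = 0.148).

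ANKRD1 (chr10:90912096-90921276) encodes a cardiac ankyrin repeat protein and is a widely used YAP target. It had 17, 9 and 8 counts in the scramble libraries and 102, 63 and 78 after siMEOX2. This was the widest change of the 10 genes, a log2 fold change of 2.80 (SE 0.28, edgeR's adjusted p = 4.18e-08), that is 6.97-fold higher, in a gene that passed the filter through the siMEOX2 group alone.

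AMOTL2 (chr3:134355874-134375479) encodes an angiomotin, which binds YAP and is itself a YAP target. It measured 133, 131 and 124 CPM in the scramble libraries and 204, 216 and 203 after siMEOX2. The groups lay far apart compared with their spread, with a log2 fold change of 0.61 (SE 0.05, edgeR's adjusted p = 4.87e-09).

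**Figure D3:**
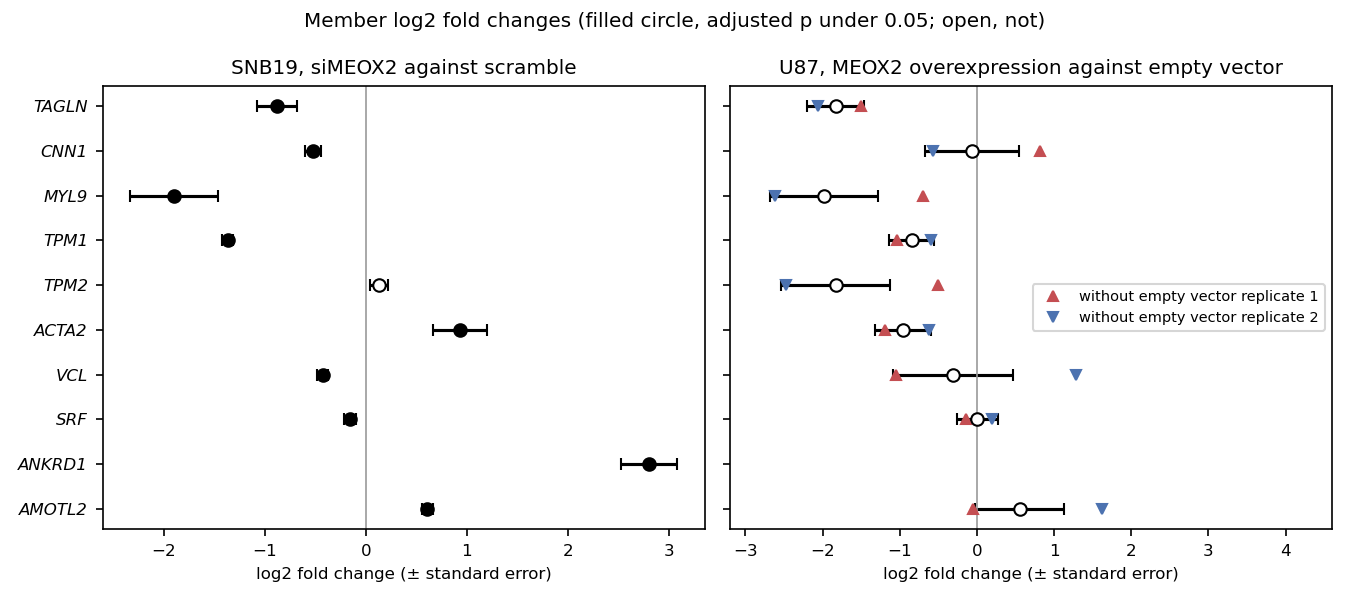
Log2 fold change (horizontal axis) of each gene in SNB19 siMEOX2 against scramble (left) and in U87 MEOX2 overexpression against empty vector (right); circles with bars are the fit of all libraries ± SE, triangles the U87 values without empty vector replicate 1 or 2. TAGLN, MYL9 and TPM1 lie left of 0 in both panels, and VCL in U87 moved from -1.04 to 1.29 with the control library used.

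The counts of the wider gene lists of the same pathways stand beside the 27.4% of all genes called higher and the 28.5% called lower. Among other targets of actin, MRTF and SRF, 26 of 30 genes were tested, of which 16 were lower and 4 higher after siMEOX2, with a median log2 fold change of -0.48. FLNC, a muscle filamin, had the largest decrease (-1.38, SE 0.27, edgeR's adjusted p = 2.29e-04), from at most 5.01 CPM. FLNA, the filamin that crosslinks cortical actin, measured 5798, 5675 and 5747 CPM in the scramble libraries and 2550, 2655 and 2638 after siMEOX2, a log2 fold change of -1.21 (SE 0.04, edgeR's adjusted p = 3.58e-15). ACTB, cytoplasmic beta actin, fell likewise (-0.99, SE 0.05, edgeR's adjusted p = 2.47e-12), whereas ACTG1, cytoplasmic gamma actin, had a log2 fold change of 0.07 (SE 0.04, edgeR's adjusted p = 0.210). FHL2, a LIM domain protein, was the largest increase of the list (1.25, SE 0.07, edgeR's adjusted p = 2.45e-12).

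Other YAP and TEAD targets showed no common direction: all 22 were tested, 9 were higher and 8 lower, and the median was 0.02. The 2 matricellular genes most often read as YAP targets were both higher. CCN1 (named CYR61 in the table) measured 269, 248 and 230 CPM in the scramble libraries and 979, 1044 and 947 after siMEOX2, a log2 fold change of 1.92 (SE 0.06, edgeR's adjusted p = 6.34e-16). CCN2 (CTGF) rose by 0.82 (SE 0.07, edgeR's adjusted p = 3.61e-09). IGFBP3, a carrier of insulin-like growth factors, rose by 1.38 (SE 0.08), and ARHGEF17 fell by 1.24 on the log2 scale (SE 0.06, edgeR's adjusted p = 1.38e-12).

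Of the 8 immediate early genes reached by SRF through the ternary complex factors, all were tested, 7 were higher and 0 lower, with a median log2 fold change of 0.66; the largest were FOS (1.38, SE 0.18), EGR2 (1.31, SE 0.15) and FOSB (0.95, SE 0.17), with edgeR's adjusted p = 2.17e-06, 3.20e-07 and 6.15e-05. FOS remained low in absolute terms, at 2.19 to 2.99 CPM in the scramble libraries and 6.53 to 7.59 after siMEOX2.

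Of 29 pathway regulators, 27 were tested, of which 13 were lower and 5 higher, with a median of -0.15. The GTPase RHOC had the largest decrease (-1.30, SE 0.06, edgeR's adjusted p = 9.54e-13), next to the Hippo adaptor MOB1A (-1.06, SE 0.06), while the GTPase RHOB was higher (0.72, SE 0.06, edgeR's adjusted p = 2.04e-09). The coactivators fell by little: WWTR1 had a log2 fold change of -0.33 (SE 0.06), YAP1 of -0.30 (SE 0.06), MRTFA of -0.25 (SE 0.07) and MRTFB of -0.21 (SE 0.08), with edgeR's adjusted p = 9.71e-05, 2.23e-04, 0.00345 and 0.0259. Their transcripts say nothing of where in the cell the proteins were. LATS2 and AMOTL1 stand both in this list and in that of the YAP targets.

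**Figure D4:**
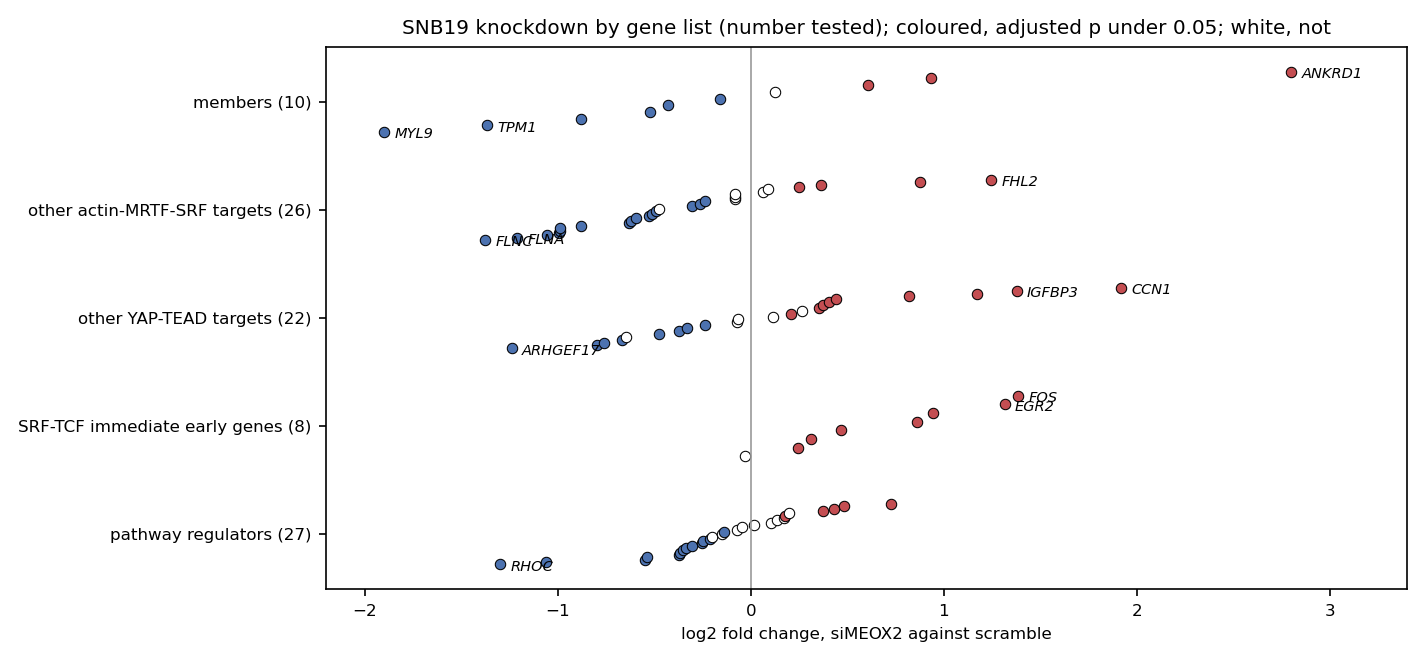
Log2 fold change after siMEOX2 in SNB19 (horizontal axis) for the 10 contractile genes and the 4 companion lists (number tested in brackets); each point is a gene, red higher and blue lower at an adjusted p under 0.05, white not called. Among the immediate early genes 7 of 8 lie to the right of 0 in red, and among the other actin, MRTF and SRF targets 16 of 26 lie to the left in blue.

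Markers of cell identity were counted beside the same 27.4% of all genes higher and 28.5% lower. Of 8 glial and glioma markers 7 were tested, 6 were lower and 1 higher, and their summed level went from 1672 to 1702 CPM in the scramble libraries to 784 to 819 after siMEOX2, with VIM as the most abundant gene (826 to 841 CPM against 420 to 444). The 9 pericyte and smooth muscle markers, which give 10 rows because RGS5 occurs in 2, had 5 lower and 1 higher, and their sum went from 454 to 464 CPM to 318 to 334, most of it MCAM. Of 6 endothelial markers 5 were tested and 3 were lower. The lower ones include CDH5, which had 0 counts in siMEOX2 replicate 2 and passed the filter through the scramble group. PECAM1 was the most abundant of them, at 31.9 to 35.6 CPM against 4.52 to 6.62. Of 5 epithelial markers 3 were lower and 1 higher, with a sum of 381 to 410 CPM against 251 to 287, most of it KRT8. Immune markers summed to at most 2.04 CPM in any library, and 1 of the 6, CD14, was tested and lower. CD14 was at most 1.82 CPM in the scramble libraries and passed the filter through that group. In U87, S100B was listed at 0 counts in all 4 libraries, and SOX2 had at most 0.239 CPM, so 2 of the glial markers were at or near 0 there. The part of these markers in the changes of the contractile genes was not tested.

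Overexpression of MEOX2 in U87 cells left 5 of the contractile genes lower than in either control library, namely TAGLN, MYL9, TPM1, TPM2 and ACTA2, and none of the 9 tested genes above both controls. Of 14180 genes tested, 22.0% lay below both controls and 35.5% above both. With both controls in the fit of U87 alone edgeR called 0 genes higher (0%) and 0 lower (0%), hence 0 of 9 contractile genes. At an unadjusted p under 0.05 that fit had 1132 genes higher and 1511 lower, among the latter 4 of the 9 (TAGLN, MYL9, TPM1 and ACTA2). DESeq2 called 991 genes, among them MYL9, TAGLN and TPM2, all lower. Fits of all 4 groups together and without the filter also called genes, some contractile genes among them. Their numbers stand under How the results depend on the processing. Median log2 fold changes were -0.85 for the 9 genes and -0.06 for all tested. The 2 controls, not the 2 overexpression libraries, carried the spread, and the median log2 ratio of the group means rose with gene length from -0.24 in the shortest quartile to 0.39 in the longest.

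Each control was then used alone, which assumes that it varies like the overexpression pair. Without empty vector replicate 1, 23.3% of 14875 genes were called higher and 24.2% lower, and 6 of the 9 contractile genes were lower and 0 higher. Without empty vector replicate 2, 36.0% of 14912 genes were called higher and 35.2% lower, and 5 of the 9 were lower and 2 higher. The same 5 genes, TAGLN, MYL9, TPM1, TPM2 and ACTA2, were lower in both of these fits, where 15.0% of 14591 genes were lower in both and 16.1% higher in both. Both fits share the 2 overexpression libraries and are not independent.

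TAGLN measured 10.2 and 9.32 CPM with empty vector and 3.43 and 3.21 with MEOX2, without overlap. Its log2 fold change was -1.83 (SE 0.37, edgeR's adjusted p = 0.166, unadjusted p = 0.00552), and -1.50 and -2.06 without empty vector replicates 1 and 2.

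MYL9, which was near the detection floor in SNB19, was readily detected here. It measured 77.5 and 27.5 CPM with empty vector and 18.0 and 16.3 with MEOX2, a log2 fold change of -1.98 (SE 0.70, edgeR's adjusted p = 0.252). The size depended on the control, at -0.69 without replicate 1 and -2.62 without replicate 2.

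TPM2 behaved alike, at 100.01 and 34.4 CPM with empty vector and 23.4 and 25.6 with MEOX2. Its log2 fold change was -1.83 (SE 0.71, edgeR's adjusted p = 0.274), -0.50 without replicate 1 and -2.47 without replicate 2. TPM1, a longer gene, measured 33.4 and 61.0 CPM against 27.4 and 32.7. Its log2 fold change was -0.85 (SE 0.29, edgeR's adjusted p = 0.247), -1.03 without replicate 1 and -0.59 without replicate 2.

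ACTA2 measured 5.69 and 11.5 CPM with empty vector and 4.63 and 5.40 with MEOX2. Both overexpression libraries lay just under the lower control, and the log2 fold change was -0.96 (SE 0.36, edgeR's adjusted p = 0.266), with -1.20 and -0.62 against the single controls.

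VCL could not be given a direction. It measured 72.8 and 494 CPM with empty vector and 249 and 235 with MEOX2, so the overexpression libraries lay between the controls. Its log2 fold change was -0.31 (SE 0.77, edgeR's adjusted p = 0.824), -1.04 without replicate 1 and 1.29 without replicate 2, both called.

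AMOTL2 measured 9.84 and 42.3 CPM with empty vector and 43.0 and 39.8 with MEOX2. It was called higher only against replicate 1 (log2 fold change 1.63), and was -0.045 against replicate 2 and 0.55 against both (SE 0.58, edgeR's adjusted p = 0.597). CNN1, at 3.59 and 1.85 CPM against 2.71 and 3.83, and SRF, at 55.4 and 94.0 CPM against 89.0 and 83.6, overlapped with their controls and were called in none of these fits; their log2 fold changes were -0.062 (SE 0.61) and 0.0046 (SE 0.27), with 0.82 and -0.57 for CNN1 and -0.14 and 0.19 for SRF without replicates 1 and 2. ANKRD1 had 0 counts in both empty vector libraries and 6 and 3 with MEOX2, too few to pass the filter. Its pooled level was 3.34 times a floor of 3 counts over the control group. Its 9 counts carry their own counting error, so no minimum rise is read from this.

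In the companion lists 0 genes were called with both controls in the fit of U87 alone. Other fits with both controls did call genes in U87, and their calls in these lists are not given here. Medians in the fit of U87 alone were -0.50 for the 26 other actin, MRTF and SRF targets tested and 0.27 for 21 YAP and TEAD targets. They were 0.34 for 7 immediate early genes and 0.32 for 27 regulators. The single controls gave different counts, beside 23.3% of all genes called higher and 24.2% lower without replicate 1, and 36.0% higher and 35.2% lower without replicate 2. Of the 26 actin, MRTF and SRF targets 5 were higher and 14 lower without empty vector replicate 1, and 8 higher and 14 lower without replicate 2. Of the 21 YAP and TEAD targets 6 were higher and 7 lower without replicate 1, and 13 higher and 0 lower without replicate 2. Regulators had 8 higher and 8 lower without replicate 1, and 18 higher and 4 lower without replicate 2; immediate early genes had 2 higher and 1 lower of 8, and 5 higher and 2 lower of 7. The medians without replicates 1 and 2 were -0.35 and -0.32 for the actin, MRTF and SRF targets, -0.053 and 0.46 for the YAP and TEAD targets, 0.046 and 0.90 for the immediate early genes and -0.019 and 1.02 for the regulators, so the last 3 depended on the control used. ACTB had a log2 fold change of -0.82 (SE 0.35) and ACTG1 of -1.11 (SE 0.39), and each was called lower against either single control (-0.79 and -0.83 without replicate 1, -0.80 and -1.31 without replicate 2). CCN1 measured 30.3 and 41.3 CPM with empty vector and 89.6 and 79.5 with MEOX2, a log2 fold change of 1.01 (SE 0.25, edgeR's adjusted p = 0.190), and was called higher against either control alone at 1.02 and 1.03. CCN2 was at 0.04 (SE 0.27) and was not called against either control alone (-0.053 and 0.17). Of the coactivators WWTR1 was at -0.68 (SE 0.27), YAP1 at 0.88 (SE 0.54), MRTFA at 0.12 (SE 0.25) and MRTFB at 0.02 (SE 0.55). None of them was called with both controls in the fit of U87 alone. Against the single controls WWTR1 was called lower in both cases (-0.82 without replicate 1, -0.48 without replicate 2) and YAP1 higher in both (0.33 and 1.82), with a size that depended on the control. MRTFA was called in neither (0.12 and 0.16). MRTFB was called in opposite directions, -0.55 without replicate 1 and 1.02 without replicate 2. In the fit of U87 alone with both controls glial markers had a median of -1.64 and pericyte and smooth muscle markers -0.73. Endothelial markers had 0.66 and epithelial markers -1.08, with 0 called and no immune marker tested. Without replicates 1 and 2 these medians were -0.82 and -2.07 for glial, -1.07 and -0.66 for pericyte and smooth muscle, -0.75 and 1.33 for endothelial and -0.34 and -2.48 for epithelial markers. Glial markers then had 1 higher and 3 lower without replicate 1 and 1 higher and 4 lower without replicate 2, of 6 tested, and pericyte and smooth muscle markers 1 higher and 5 lower, and 3 higher and 4 lower, of 8. Endothelial markers had 0 higher and 2 lower of 4, and 1 higher and 1 lower of 3, and epithelial markers 0 called of 2, and 0 higher and 2 lower of 3.

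The control cells of the 2 lines differed in the levels of several of these genes. In the fit of all 4 groups, 4 of the 10 were higher in SNB19 scramble than in U87 empty vector and 4 lower, against 28.1% and 28.8% of 17312 genes tested. The 4 higher include ANKRD1, which had 0 counts in both U87 controls and passed the filter through the siMEOX2 group, outside this contrast. CNN1 was 24.9-fold higher in SNB19 (log2 fold change 4.64, SE 0.37, edgeR's adjusted p = 8.58e-06), and TPM1 (1.98, SE 0.17) and AMOTL2 (2.06, SE 0.38) were higher as well. ANKRD1 was at least 7.48-fold higher, measured against a floor of 3 counts over the U87 control group, and its call is not read as a result. MYL9 went the other way and was 60.0-fold lower in SNB19 (-5.91, SE 0.54, edgeR's adjusted p = 2.01e-05), with ACTA2 (-2.70, SE 0.29), TPM2 (-1.93, SE 0.43) and TAGLN (-0.96, SE 0.27) also lower. VCL had a log2 fold change of 1.31 (SE 0.50, edgeR's adjusted p = 0.0505) and SRF of -0.17 (SE 0.13, edgeR's adjusted p = 0.274). The sizes depended on the control. CNN1 was 44.7-fold higher without empty vector replicate 1 and 16.6-fold without replicate 2, and AMOTL2 2.75-fold and 8.49-fold, while TPM1 stood at 3.45-fold and 4.53-fold. MYL9 was 24.9-fold lower without replicate 1 and 97.3-fold without replicate 2, TPM2 1.55-fold and 6.26-fold, ACTA2 7.74-fold and 5.35-fold and TAGLN 1.56-fold and 2.38-fold. All 7 were called in both of these fits, where 32.5% of 18318 genes were called higher and 30.9% lower without replicate 1, and 38.1% of 18374 higher and 35.6% lower without replicate 2. VCL was called in both as well (log2 fold change 0.56 and 2.85), and SRF only without replicate 1 (-0.33, against -0.039 without replicate 2). Cell line and mode of delivery, lipofection or lentivirus with selection, cannot be told apart in this comparison.

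The companion lists were counted beside the same 28.1% of all 17312 genes called higher in SNB19 and 28.8% called lower. Their counts include FOXF2 and AMOT, both called higher and both at 0 counts in the U87 controls. Of 22 YAP and TEAD targets 12 were higher in SNB19 and 4 lower, with CCN1 (2.44, SE 0.14) and CCN2 (2.14, SE 0.15) among those higher. Among the targets other than FOXF2 the widest were NUAK2 (3.91), NT5E (-3.78) and ARHGEF17 (3.76). FOXF2 had 0 counts in the U87 controls and was at least 9.9-fold higher, against the same floor of 3 counts, so it is not ranked. Of 28 other actin, MRTF and SRF targets tested 5 were higher and 12 lower. The widest were FLNC (-8.54, SE 0.37) and the non-muscle myosin MYH10 (7.33, SE 0.23). TES was at -5.50 (SE 0.51), but it did not pass the filter in SNB19 alone and is not ranked. ACTG1 was lower (-0.60, SE 0.17) and ACTB was not called (0.37, SE 0.15). Of 8 immediate early genes 3 were higher and 2 lower, with IER2 at -2.88, FOSB at 2.37 and EGR3 at 1.92. EGR3 did not pass the filter in U87 alone. Of 28 regulators tested 8 were higher and 6 lower. The widest apart from AMOT and VGLL3 was RHOC (-1.91). AMOT had 0 counts in the U87 controls and was at least 11.2-fold higher. VGLL3 (-6.13) did not pass the filter in SNB19 alone, so neither it nor AMOT is ranked. WWTR1 was at -0.70, MRTFA at 0.35, MRTFB at 0.16 and YAP1 at -0.06, of which the last 2 were not called. Against the single controls YAP1 and MRTFB were called in opposite directions, at -0.62 and -0.42 without replicate 1 and 0.83 and 1.11 without replicate 2, and ACTB was called higher in both (0.38 and 0.32). RHOC was -0.63 without replicate 1 and -2.61 without replicate 2, IER2 -1.70 and -3.55, FOSB 3.01 and 1.84, EGR3 1.43 and 2.73, VGLL3 -6.73 and -5.13, and ACTG1 -0.33 and -0.86, all called. Against the high shares of all genes called in these fits, given above, the regulators had 8 higher and 15 lower of 28 without replicate 1, and 21 higher and 7 lower without replicate 2. The other actin, MRTF and SRF targets had 10 higher and 13 lower, and 10 higher and 14 lower, the YAP and TEAD targets 13 higher and 8 lower, and 17 higher and 4 lower, and the immediate early genes 4 higher and 3 lower, and 3 higher and 1 lower.

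Because one line was given less MEOX2 and the other more, the 2 effects were set against each other. As the difference of the effect of siMEOX2 minus that of overexpression, 8.36% of 17312 genes were called higher and 7.33% lower, and of the 10 genes only ACTA2 was called, with a log2 difference of 1.87 (SE 0.42, edgeR's adjusted p = 0.0183). Without empty vector replicates 1 and 2 the ACTA2 difference was 2.07 and 1.53, and in each of these fits 7 of the 10 genes were called, AMOTL2 and VCL in opposite directions (0.60 and -1.03, 0.56 and -1.73). Of all genes, 16.1% were called higher and 19.4% lower without replicate 1, and 26.9% higher and 27.7% lower without replicate 2. ACTA2 was higher with less MEOX2 in SNB19 and had lower values with more MEOX2 in U87. This call was lost with the replicate block (adjusted p = 0.0597) and without scramble replicate 1 (0.0551), scramble replicate 2 (0.0520), overexpression replicate 1 (0.0816) or overexpression replicate 2 (0.0615). When both effects were turned to the same direction, as the state with more MEOX2 minus the state with less, in a contrast chosen after the data were seen, 14.2% of genes were called higher in SNB19 than in U87 and 10.2% lower. TAGLN, MYL9 and TPM1 were then called higher. ANKRD1 passed the threshold as lower, but it had 0 counts in the U87 controls and passed the filter on low counts through the siMEOX2 group, where it was high, so no difference was read from it. TAGLN and TPM1 thus fell with less MEOX2 in SNB19 and had lower values with more MEOX2 in U87. For MYL9 the SNB19 side rests on at most 21 counts a library. Line, mode of delivery and range of MEOX2 levels cannot be told apart in either contrast. The other 6 were not called for this difference, with ACTA2 at 0.03 (SE 0.46), CNN1 at 0.57 (SE 0.46), TPM2 at 1.70 (SE 0.62), AMOTL2 at -1.15 (SE 0.50), VCL at 0.74 (SE 0.68) and SRF at 0.16 (SE 0.18). With 1 control, where 21.8% of all genes were called higher and 21.3% lower without replicate 1 and 28.3% and 28.5% without replicate 2, AMOTL2 was called lower in both cases (-0.60 without replicate 1, -2.25 without replicate 2), VCL in opposite directions (1.43 and -0.87), and CNN1 (1.07) and TPM2 (2.33) without replicate 2 only.

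For each of the 10 genes the 2 most alike of 9889 other genes were found by Pearson's r of log2 CPM over the 10 libraries after each line's mean was subtracted. For VCL these were SEC24D (r = 0.998) and SPTBN1 (0.996), for AMOTL2 ZNF592 (0.996) and DIAPH1 (0.995), and for TPM2 PPIH (0.996) and AP4B1 (0.992). MYL9 was closest to DSTN (0.983), an actin-depolymerising protein, and CHID1 (0.982), TPM1 to GUCY1B1 (0.990) and SSBP3 (0.989), SRF to KIF7 (0.991) and CNOT3 (0.990), and ANKRD1 to SLC41A3 (0.980) and TARS2 (0.976). TAGLN was closest to ORMDL3 (0.970) and DAXX (0.963), ACTA2 to PDK1 (0.949) and CENPK (0.944), and CNN1 to MAD2L1BP (0.954) and EDEM2 (0.948). All these points share the 2 empty vector libraries, whose ratio followed gene length, and the values are descriptions without a test.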

How the data were processed

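RNA-seq of 10 libraries (SNB19, 3 against 3; U87, 2 against 2) was analysed from 1 table. Libraries were made from 1.5 µg of total RNA by poly(A) selection with a kit that does not mark strand, and read as 150 bp pairs. The authors deposited raw read counts per gene for 34567 genes. The authors also deposited FPKM values, which matched CPM divided by 1 length per gene (within 1e-06); that length equalled the GENCODE v29 exon union for 34470 genes. The submitters' processing notes name GRCh38, HISAT2, HTSeq 0.11.2 and DESeq2 1.26.0 without roles, and the strand setting of the counting is not given in the sources used here. Groups came from the sample titles, since the treatment field of 3 U87 samples names other MEOX numbers. Both overexpression titles also carry the same number in brackets, so the numbering of these 2 libraries, which give the spread when 1 control is used, is in doubt; their replicate numbers follow the first part of the title. No 2 libraries were identical.

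Counts were tested with edgeR 4.0.16 (quasi-likelihood F-test, TMM factors, filterByExpr with a minimum count of 10, Benjamini-Hochberg over all genes tested, called at an adjusted p under 0.05) in R 4.3.3, each line alone, and in 1 fit of all 4 groups where a contrast spans both lines. The fits were tested on simulated data first. Levels between genes were compared as deposited FPKM; CPM is the count over the library total. Depth was 12533775 to 16560324 counts, so 1 count was 0.0604 to 0.0798 CPM. Floors cover counting error only, as reads carried no molecular identifiers.

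The members, companion lists and markers were chosen with earlier results of these data known. Named genes were MEOX2, all 10 members, the 3 genes of each companion list with the largest absolute log2 fold change among those called without overlap in CPM, and always MRTFA, MRTFB, YAP1, WWTR1, CCN1, CCN2, ACTB and ACTG1. Marker genes were named after their values were seen. The marker CD3E was not analysed here. Alternatives were other size factors (RLE, upper quartile), DESeq2 1.42.0, no filter, CPM of at least 1 in 2 samples, 1 fit of all groups, limma 3.58.1 on log2(FPKM + 0.1) and log2(FPKM + 1), the study's call rule (absolute log2 fold change over 1 and unadjusted p under 0.05), a replicate block, and each replicate left out. Promoter windows were RefSeq's, searched in Python 3.11.15.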

Additional observations from a re-analysis of the deposited data

Results flagged for a closer look

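TAGLN and TPM1 changed differently in the SNB19 knockdown and the U87 overexpression, in the test of the difference itself. Both effects were taken as more MEOX2 minus less. Of all 17312 genes tested, 14.2% were called higher and 10.2% lower in this contrast. The log2 difference, SNB19 minus U87, was 2.70 for TAGLN (SE 0.40, edgeR's adjusted p = 0.00168), 3.87 for MYL9 (SE 0.87, adjusted p = 0.0122) and 2.21 for TPM1 (SE 0.22, adjusted p = 2.20e-04). MYL9 had at most 21 counts in any SNB19 library and passed the filter of the SNB19 comparison only through the scramble group, so its SNB19 side is weakly measured. All 3 were higher with more MEOX2 in each SNB19 scramble library than in each siMEOX2 library, and lower in both U87 overexpression libraries than in both controls. For ANKRD1 it was -8.19 (SE 1.33, adjusted p = 0.00356), a value that depends on the prior count because the U87 controls were at 0 counts, so no difference is read from it. All 64 repeated values, those of ANKRD1 and those without each empty vector library included, kept their direction and their call. The repeats of ANKRD1 and MYL9 rest on the low counts given above, so nothing is read from their steadiness. MYL9 ranged from 2.55 to 4.50 and TPM1 from 1.94 to 2.36. Mean MEOX2 was 16.4 CPM in SNB19 scramble and 3.23 after siMEOX2, against 0 in U87 empty vector and 381 under overexpression. The contrast was chosen after the data were seen, and line, mode of delivery and range of MEOX2 levels cannot be told apart.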

How the results depend on the processing

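In SNB19, 1 fit of all 4 groups, whose shared spread includes the U87 controls, called 2725 genes and 3 of the 10 members (TPM1, TAGLN and ANKRD1), and the study's call rule 1669 genes and 3 members (TPM1, MYL9 and ANKRD1); without each replicate in turn 7662 to 9102 genes and 8 to 9 members were called. Of 160 repeated member values there, 140 kept direction and call and 20 lost the call. In U87, where 0 genes were called, DESeq2 called 991 genes and 3 members, no filter 1863 and 3, 1 fit of all groups 4538 and 6, limma on FPKM 5 and 0 with either pseudocount, and the study's call rule 2160 and 2; the cause was not tested. Leaving out 1 U87 replicate gave 38 to 10616 genes and 0 to 7 members. CNN1 in U87 turned to 0.29 and 0.15 with limma (pseudocounts 0.1 and 1), to 0.065 with the replicate block, and with 1 replicate left out it lay between -0.57 and 0.82. VCL turned to 0.35, 0.30 and 0.10 with limma and the block, and lay between -1.04 and 1.29 with 1 replicate left out. In the same way AMOTL2 lay between -0.045 and 1.63 and SRF between -0.14 and 0.19.

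Between the controls of the 2 lines, 8219 to 13539 genes and 8 to 10 members were called when 1 replicate was left out. For the difference between the effects, DESeq2 and no filter each called 2 members, and leaving out 1 replicate gave 1018 to 10034 genes and 0 to 7 members. For the contrast of more against less MEOX2 it gave 2265 to 10435 genes and 4 to 8 members.

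Replicate numbers did not pair the samples: same-number correlations of deviations were -0.03, -0.08 and 0.13 in SNB19. With the replicate block U87 had 468 genes and 0 members called. The difference between effects had 698 and 0, and the contrast of more against less MEOX2 2215 genes. In SNB19 the block kept 9 member calls. That count, and those of DESeq2 and no filter for the difference between the effects, stand here without a count of all genes called. Nothing is read from them about the members beside other genes. In U87 the same-number correlation was -0.36, and with the pairing crossed, chosen after seeing the data, 1152 genes and 3 members were called.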
